A study of Mus musculus with 2 samples.

Results

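The genes described here encode the proteins of the cytosolic ribosome of mouse cells. They were taken from the deposited gene table by symbol, as every gene named Rpl or Rps with a number and at most a letter and a further digit, together with Rplp0, Rplp1, Rplp2 and Rpsa. Names that mark a pseudogene with -ps were left out. This gave 86 of the 22383 genes in the table. Of these, 77 are the canonical genes of the ribosome, 4 are paralogs (Rpl3l, Rpl7l1, Rpl22l1 and Rps27l) and 5 carry a ribosomal protein name but are annotated as pseudogenes (Rpl6l, Rpl32l, Rps3a2, Rps3a3 and Rps12l1). A gene counted as measured if either library held at least 20 of its counts, and 84 of the 86 were. The remaining ones were Rpl3l, with 0 counts in the shcircSmad5 library and 1 in the empty vector library, and Rpl32l, with 5 and 0.

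The cells were iHFSC2, an immortalized mouse line of hair follicle stem cells. The shcircSmad5 line carried the lentiviral construct pwslv-shcircSmad5, whose hairpin RNA is directed at circSmad5, a circular transcript of Smad5, and its control line carried the empty vector. Infected cells of both lines were selected with puromycin from day 4, and RNA was taken from the stable lines made by day 15. Each line gave 1 library, so no test was possible, and an effect of the hairpin cannot be told apart from differences between separately selected cultures or from carrying any hairpin at all.

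Gene counts summed to 38382081 in the shcircSmad5 library and 39261010 in the empty vector library, and 13596 genes were measured. The gene counts hold circular and linear Smad5 reads together, and Smad5 had 3413 counts in shcircSmad5 cells and 3109 in empty vector cells. The keratinocyte genes Krt14 (226645 and 162982 counts) and Krt5 (224675 and 206538) were abundant in shcircSmad5 and empty vector cells alike. The epidermal genes Trp63 (9449 and 11857) and Itga6 (29412 and 41616) and the hair follicle gene Sox9 (5301 and 8829) had fewer counts in shcircSmad5 cells. The bulge marker Krt15 was low (79 and 253), the hair follicle stem cell gene Lhx2 had 5 and 4, and the bulge marker Cd34 was listed at 0 in both. The median log2 ratio of the 6 measured markers of this kind was -0.44. Of the markers of other cell types, the fibroblast gene Pdgfra (62 and 161), the endothelial genes Pecam1 (27 and 81) and Kdr (4 and 33) and the melanocyte gene Pmel (30 and 24) had at least 20 counts in a library. Col1a1, Dcn, Lum, Cdh5 and Lyz2 were at 0 in both. In RNA from a whole culture, fewer cells of a kind and less RNA per cell cannot be told apart.

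A ribosome has a large 60S subunit, which joins amino acids, and a small 40S subunit, which reads the mRNA. Each protein sits in it as a single copy, except in the stalk that recruits elongation factors, so cells need the proteins in matched amounts. Most of these mRNAs begin with a run of pyrimidines, the 5′ terminal oligopyrimidine or TOP motif, through which the kinase mTOR and the binding protein Larp1 set their translation together. Nearly every one of the genes has processed pseudogenes, inserted copies of its mRNA, elsewhere in the genome.

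Ribosomal protein mRNAs stood at closely similar levels in shcircSmad5 and empty vector cells. A gene was called when its ratio, shcircSmad5 over empty vector after TMM scaling, was at least 2-fold with a 95% counting interval that excluded 1. By this rule 1 of the 84 measured genes was higher in shcircSmad5 cells, Rps18, and 0 were lower, against 8.43% of all measured genes higher and 6.24% lower (14.7% in either direction). Among the 11598 measured protein-coding genes, 4.60% were higher and 6.38% lower (11.0% in either direction). The median log2 ratio of the 84 genes was 0.01, with 45 above 0 and 39 below, against -0.02 for all measured genes and -0.05 for the protein-coding genes. Distances from 0 were also shorter, since 61 of the 84 (72.6%) had a log2 ratio within 0.25 of 0, against 40.4% of all measured genes and 43.9% of protein-coding genes. With the limit set at 1.5-fold, 2 members were higher, Rps18 and Rpl24, and 0 lower, against 13.9% and 12.9% of all measured genes (26.8% in either direction) and 9.29% and 13.6% of protein-coding genes (22.9%).

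Ribosomal protein genes are deeply covered, so they were also set beside other genes with many reads. Among genes that reached 1000 counts in either library, 74.0% of the 77 ribosomal protein genes lay within 0.25 of 0, against 52.6% of 6821 protein-coding genes. The median absolute log2 ratio was 0.148 for those ribosomal protein genes and 0.234 for those protein-coding genes. The counting intervals of the members are narrow, with a median reach of 0.0362 log2 to either side. Many of the small ratios below are therefore larger than counting error, while the spread between cultures was not measured and may be as large as they are.

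**Figure D1:**
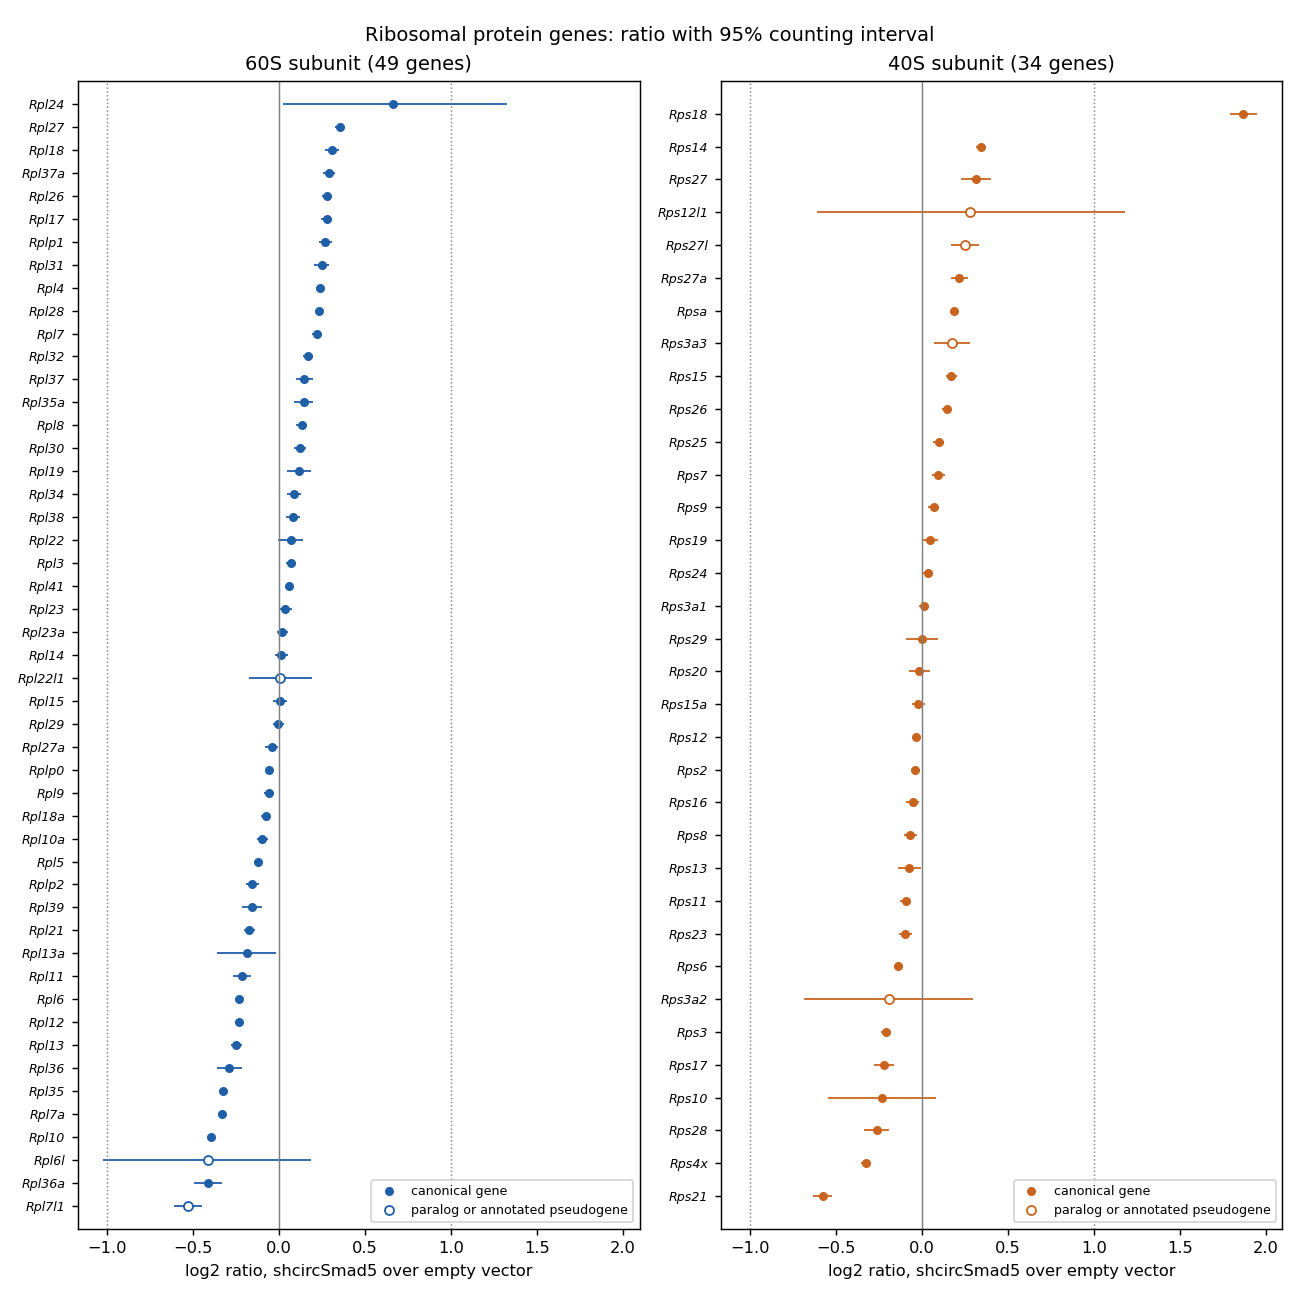
Log2 ratio of each measured ribosomal protein gene, shcircSmad5 over empty vector, with its exact 95% counting interval as a bar. The left panel has 49 genes of the large subunit and the right panel 34 of the 35 of the small subunit, open points are paralogs or annotated pseudogenes, and dotted lines mark 2-fold. Only Rps18, at 1.87, lies past the 2-fold line, and the canonical genes otherwise run between -0.57 (Rps21) and 0.66 (Rpl24).

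The genes together took 3.45% of all gene counts in shcircSmad5 cells (1325808 counts, exact binomial 95% interval 3.45 to 3.46%) and 3.27% in empty vector cells (1284939 counts, 3.27 to 3.28%). The shcircSmad5 share was higher by 0.181 percentage points. These shares divide by unscaled totals, and ratios scaled by total counts lie 0.0626 log2 above those after TMM scaling. The binomial intervals reflect counting alone, and 1 library per line cannot show how far such shares vary from culture to culture. With the paralogs included, genes of the large subunit gave 2.14% of counts in shcircSmad5 cells and 2.06% in empty vector cells, and genes of the small subunit 1.31% and 1.21%. On the FPKM scale, where a gene's reads are divided by its exon length, the members made up 8.24% of the summed values in shcircSmad5 cells and 7.66% in empty vector cells.

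The TOP motif is read here from the 30 bases around the start that RefSeq annotates on GRCm38.p6, 15 before it and 15 from it on, because it is the feature that these mRNAs are known to share. Of the 86 genes, 62 had an entry in the promoter table. In 14 of the 62 (22.6%) an annotated start was a C followed by at least 4 further pyrimidines, against 3.01% of the 27025 genes in that table and 2.93% of the 9257 measured protein-coding genes in it. With such a run anywhere within 10 bases of the start, the shares were 61.3%, 34.4% and 36.9%. The runs are shown for the genes at both ends of the ratios (Rps18 and Rps21), for a kinase target (Rps6), for a stalk protein (Rplp2), for the most abundant of the low-ratio genes by FPKM (Rpl35), for the gene with the least unique mRNA (Rps27) and for a gene with few reads (Rps10). Capitals mark the pyrimidine run that starts at the annotated first base, and coordinates are those of the 30 bases.
Rps18, chr17:33955651-33955680, minus strand: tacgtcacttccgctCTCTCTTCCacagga
Rps21, chr2:180257364-180257393, plus strand: taccgaggacccgccCTCCTgcccaatagt
Rps6, chr4:86857353-86857382, minus strand: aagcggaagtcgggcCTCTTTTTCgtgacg
Rplp2, chr7:141447636-141447665, plus strand: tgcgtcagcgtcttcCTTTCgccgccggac
Rpl35, chr2:39005117-39005146, minus strand: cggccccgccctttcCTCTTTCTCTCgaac
Rps27, chr3:90213634-90213663, minus strand: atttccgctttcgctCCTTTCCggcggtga
Rps10, chr17:27635230-27635259, minus strand: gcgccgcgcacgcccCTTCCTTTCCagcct

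A run at the annotated start did not sort the genes by ratio. A run lay within 10 bases of the start in 61.3% of the 62 genes, against 22.6% at the start itself. Genes without it at the start can thus have it a few bases away, and the split does not separate TOP from other mRNAs. The 13 measured genes with a TOP run at the annotated start had a median log2 ratio of 0.01 and a range of -0.57 to 1.87, and the 47 measured genes with a promoter entry and no such run had a median of 0.01 and a range of -0.53 to 0.66. Rps18 and Rps21, at opposite ends, both have the run. Of other motifs searched on both strands of the 300 bases around the start, CCGGAAG, a core of sites for ETS factors, was in 40.3% of the 62 promoters, against 21.1% of measured protein-coding genes and 9.93% of all genes. The motif AAGATGGCG, read by YY1, was in 6.45% against 3.72% and 1.64%. The GC box GGGCGG was in 61.3% against 70.1% and 38.2%. TATAAA, on either strand of the 50 bases before the start, was in 1.61% against 2.17% and 4.17%. A gene with several annotated starts counted once if any of them matched, and the end of CCGGAAG can overlap the start of AAGATGGCG. A match describes letters in the window and is not shown to be a bound site.

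Levels ran over a wide range that was almost the same in both libraries. Per length, the 77 canonical genes had a median FPKM of 178 in shcircSmad5 cells (1.39 to 1597) and 179 in empty vector cells (0.841 to 1590). Ranked by FPKM, the genes stood in nearly the same order in both (Spearman's rho 0.98 over 77 genes, a description of 2 libraries made alike). The highest was Rplp0, the scaffold of the stalk, at 1597 FPKM in shcircSmad5 cells and 1590 in empty vector cells. Well below it were Rps15 of the small subunit head, with 762 and 648 FPKM, and Rpl41, the shortest of the ribosomal proteins, with 719 and 660. Other high ones were Rplp1 with 630 and 501 FPKM, Rpsa with 621 and 522, Rpl4 with 594 and 483 and Rps3a1 with 565 and 536. These genes come from both subunits and do not all share a site. Their order differed between the libraries, with Rps15 above Rpl41 and Rps3a1 lowest of those named in shcircSmad5 cells, and with Rpl41 above Rps15 and Rps3a1 above Rpsa, Rplp1 and Rpl4 in empty vector cells.

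The deposited FPKM divides by the summed exons of all annotated transcripts, which lowers the value of genes whose summed exons exceed their principal transcript. The summed exons of the 77 genes had a median of 1781 bases and the principal transcripts one of 886. Rps20 (28.4 and 27.4 FPKM in shcircSmad5 and empty vector cells) and Rps15a (44.7 and 43.4 FPKM) are annotated with 4080 and 6270 exon bases and stand low on that scale. Their principal transcripts are also long, 3706 and 5179 bases, and per length of these the genes stayed low. Rps20 had 31.3 RPKM in shcircSmad5 cells and 30.2 in empty vector cells, and Rps15a had 54.1 and 52.5. Per length of the principal transcript, the median level of the 77 genes was 416 RPKM in shcircSmad5 cells and 387 RPKM in empty vector cells.

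**Figure D2:**
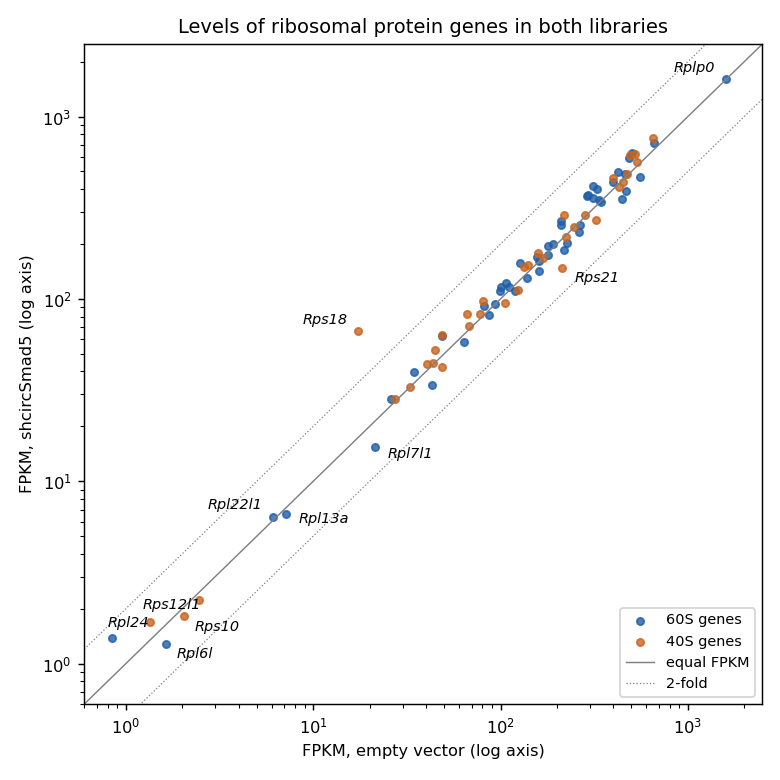
FPKM of each measured ribosomal protein gene in shcircSmad5 cells (vertical, log axis) against empty vector cells (horizontal, log axis), with the line of equal values and dotted lines at 2-fold. Points follow the line over 3 orders of magnitude, from Rplp0 at 1597 and 1590 FPKM to Rpl24 at 1.39 and 0.841, and Rps18 alone stands outside the dotted lines.

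Rps18 encodes a protein of the small subunit head that takes part in a bridge to the large subunit. It had 6240 counts in the shcircSmad5 library and 1673 in the empty vector library, or 66.3 and 17.4 FPKM. Its log2 ratio was 1.87 (95% counting interval 1.79 to 1.95). The level was thus high in shcircSmad5 cells relative to empty vector cells. Per length of the principal transcript, Rps18 ranked 48 of 80 members in shcircSmad5 cells, in the middle of the family, and 71 of 80 in empty vector cells, near its low end. Rps18 passed the 2-fold rule under each of the scalings tried and after centring by chromosome.

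Rps18 (ENSMUSG00000008668) lies in the major histocompatibility region of chromosome 17 on GRCm38, from 33951999 to 33956001 on the minus strand. Most of its neighbours did not share its ratio. Of 26 other measured genes within 200 kb, 20 had a ratio below 0 and the median log2 ratio was -0.34. The highest were 2 noncoding genes with few reads that also passed 2-fold. BC051226 had 43 counts in shcircSmad5 cells and 14 in empty vector cells (1.59, interval 0.69 to 2.57). Gm17251 had 39 and 19 (1.01, interval 0.18 to 1.88). Vps52, which overlaps 6.36% of the exon bases of Rps18 on the opposite strand and encodes a vesicle tethering protein, had 1480 counts in shcircSmad5 cells and 1591 in empty vector cells, a log2 ratio of -0.13. The small subunit gene Rps28, on the same stretch, stood at -0.26, with 2789 and 3275 counts. The antigen presentation genes Tapbp (6189 and 10270 counts) and H2-K1 (649 and 1327) had log2 ratios of -0.76 and -1.06.

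Much of the Rps18 mRNA is also found elsewhere. Only 42.7% of its 100-base windows occur in no other gene of GENCODE M21, and its copies Rps18-ps5 and Rps18-ps6 lie on chromosome 13. Rps18-ps5 had 22 counts in shcircSmad5 cells and 25 in empty vector cells, and Rps18-ps6 had 3 in each, far fewer than the gene. No source used here says how reads that match several places were counted, and the part of such reads in the Rps18 ratio was not tested. The start of the coding sequence is shown for the called gene and for 2 genes whose ratios moved when copies were added, each with a copy, from GENCODE M21 transcripts on GRCm38. These are the first 90 coding bases of Rps18, Rpl24 and Rps2 with the aligned bases of the copy, and capitals mark the bases that differ.
Rps18, chr17: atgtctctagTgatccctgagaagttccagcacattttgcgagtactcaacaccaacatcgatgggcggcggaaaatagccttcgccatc
Rps18-ps5, chr13: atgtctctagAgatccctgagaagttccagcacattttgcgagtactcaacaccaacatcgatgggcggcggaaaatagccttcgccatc
Rpl24, chr16: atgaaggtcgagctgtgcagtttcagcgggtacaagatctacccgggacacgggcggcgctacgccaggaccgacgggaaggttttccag
Gm9385, chr9: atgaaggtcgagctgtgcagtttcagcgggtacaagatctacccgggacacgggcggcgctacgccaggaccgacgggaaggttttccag
Rps2, chr17: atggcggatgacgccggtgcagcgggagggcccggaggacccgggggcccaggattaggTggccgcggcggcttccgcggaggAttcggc
Rps2-ps13, chrX: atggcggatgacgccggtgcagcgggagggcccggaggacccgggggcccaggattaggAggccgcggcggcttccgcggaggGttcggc

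Over the whole coding sequence, Rps18-ps5 matches Rps18 at 456 of 459 bases (99.3%), Gm9385 matches Rpl24 at 470 of 471 (99.8%) and Rps2-ps13 matches Rps2 at 875 of 882 (99.2%). Such copies are the rule in this family. The median gene had 64.7% of the 100-base windows of its principal transcript to itself, against a median of 100% for 11508 other measured protein-coding genes, and 31 of 80 (38.8%) had under 50%, against 3.13%. At the low end Rps27, a zinc finger protein of the small subunit, had 1.63% of its windows to itself, as its mRNA is repeated almost whole in Rps27rt, a gene with 37 counts in shcircSmad5 cells and 42 in empty vector cells. Rps21, Rps3, Rpl22 and Rps27l had 100%. The gene with the largest negative ratio among the canonical ones, Rps21, is thus among those that share no window with another gene.

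**Figure D3:**
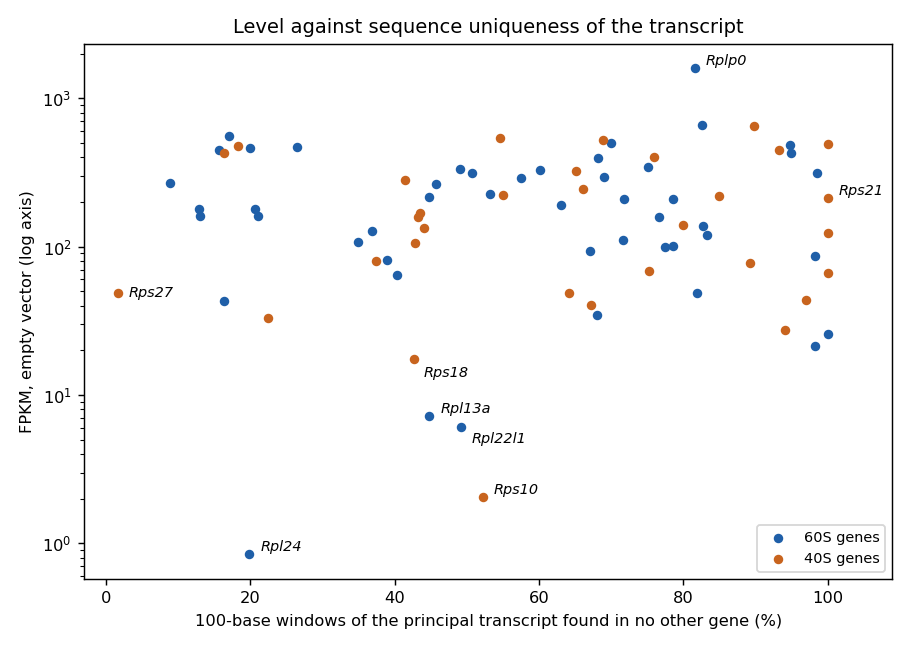
FPKM in empty vector cells (log axis) of each measured ribosomal protein gene with a principal transcript, against the share of its 100-base windows found in no other gene of GENCODE M21. The level did not follow the share (Spearman's rho 0.06 over the 77 canonical genes), and the canonical genes Rpl24 (19.9% unique), Rps10 (52.3%), Rpl13a (44.8%) and Rps18 (42.7%) stand at the bottom with the paralog Rpl22l1 (49.2%).

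A few canonical genes had almost no reads although a ribosome needs their products. Rpl24, a large subunit protein that reaches across to the small subunit and whose loss of dosage gives the mouse mutant belly spot and tail, had 55 counts in shcircSmad5 cells and 34 in empty vector cells, or 1.39 and 0.841 FPKM. Its log2 ratio was 0.66 (0.02 to 1.33). Another gene model on the same strand, Gm28037, covers 47.0% of its exon bases. Its copy Gm9385 on chromosome 9 had more reads than the gene in shcircSmad5 cells and as many in empty vector cells, 135 and 34, a log2 ratio of 1.96.

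With the reads of its annotated pseudogenes added, Rpl24 had 213 counts in shcircSmad5 cells and 76 in empty vector cells, a log2 ratio of 1.46 (1.07 to 1.85), and passed the 2-fold rule. That alternative was added after the values were seen. Rps10, a head protein at the mRNA entry, had 161 and 185 counts (1.82 and 2.04 FPKM) in shcircSmad5 and empty vector cells, and 20.6% of its exon bases lie under a same-strand read-through model. Rpl13a, a large subunit protein known in human cells for a role in silencing inflammatory mRNAs, had 535 and 597 counts (6.59 and 7.19 FPKM), and 35.4% of its exon bases lie under the same-strand model Gm45713. These 3 genes had the largest same-strand overlaps of the family, the only ones over 20%, and the part of the overlaps in their low counts was not tested.

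The pseudogenes made a difference for Rps2, a protein of the mRNA entry channel. The gene itself had 20203 counts in shcircSmad5 cells and 20296 in empty vector cells, a log2 ratio of -0.04. Its X-linked copy Rps2-ps13 had 5677 and 12931 counts, a log2 ratio of -1.22, and passed the rule as lower. With all its annotated pseudogenes added, Rps2 had 29259 and 36906 counts, a log2 ratio of -0.36. Rps2-ps13 was thus unequal between the libraries, while the gene was nearly equal. This 1 copy supplied most of the reads of the 36 pseudogenes added, which summed to 9056 in shcircSmad5 cells and 16610 in empty vector cells. Whether reads counted at the copies came from the Rps2 mRNA was not tested. Measured genes on the X chromosome, where Rps2-ps13 lies, had a median log2 ratio of -0.43.

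In the large subunit, the 47 measured genes left without the paralogs Rpl7l1 and Rpl22l1 had a median log2 ratio of 0.02 and none passed the rule. They include the annotated pseudogene Rpl6l, and the 46 canonical genes had a median of 0.03. The stalk protein genes did not share a direction. Rplp0 had 101702 counts in shcircSmad5 cells and 103568 in empty vector cells (log2 ratio -0.06), Rplp2 had 10329 and 11253 (-0.15) and Rplp1 had 12063 and 9807 (0.27). Rpl12, which anchors the base of the stalk, had a log2 ratio of -0.23. The 2 small acidic proteins Rplp1 and Rplp2 bind the stalk as a pair, and their mRNAs had ratios on opposite sides of 0.

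Among genes of the exit tunnel, through which the new protein leaves, 6 of 8 had ratios above 0 with a median of 0.18. Over all 84 measured members, 45 were above 0 and the median was 0.01. Rpl4, whose loop lines the tunnel wall, had 45788 counts in shcircSmad5 cells and 38079 in empty vector cells (0.24). Rpl17 had 18730 and 15133 (0.28), and Rpl26, at the tunnel exit, had 20506 and 16557 (0.28). The exceptions were Rpl35, a docking site for factors that meet the nascent chain, with 22091 and 27071 counts or 464 and 556 FPKM (-0.32), and the X-linked Rpl39 (-0.16). Genes of the opposite strand, chiefly Wdr38, cover 66.2% of the exon bases of Rpl35, and no source used here gives the strand setting of the counting. With the median of its chromosome subtracted, Rpl4 stood at 0.12, Rpl17 at 0.20, Rpl26 at 0.18 and Rpl35 at -0.16. Rpl39 stood above the median of -0.43 for measured genes on the X chromosome.

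Close to the peptidyl transferase centre, where the peptide bond forms, Rpl10 had 27964 counts in shcircSmad5 cells and 36015 in empty vector cells (log2 ratio -0.39). Rpl10 is added among the last proteins in assembly of the large subunit. Its fellow proteins there, Rpl3 and Rpl8, had log2 ratios of 0.07 and 0.13. Other large subunit genes with the largest positive ratios were Rpl27 (24631 counts in shcircSmad5 cells and 18848 in empty vector cells, 0.36), Rpl18 (9770 and 7727, 0.31) and Rpl37a (14527 and 11611, 0.29). The most negative were Rpl36a (2138 and 2789, -0.41), Rpl7a (26562 and 32684, -0.33), Rpl36 (2727 and 3262, -0.29) and Rpl13 (14138 and 16430, -0.25). None of these reached 1.5-fold.

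In the small subunit, the 34 measured genes left without the paralog Rps27l had a median log2 ratio of -0.00 and ran from -0.57 to 1.87. They include the annotated pseudogenes Rps3a2, Rps3a3 and Rps12l1, and the 31 canonical genes had a median of -0.01. Of 13 genes of the head, 6 were above 0 and 7 below, and Rps18 alone passed the rule. Rps15, a head protein, had 18425 counts in shcircSmad5 cells and 16020 in empty vector cells (log2 ratio 0.17), and Rps12 had 37798 and 37851 (-0.03). Head proteins thus differed from each other by more than counting error.

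On the body and platform, Rps14, whose loss underlies the anaemia of the 5q deletion in human patients, had 26511 counts in shcircSmad5 cells and 20448 in empty vector cells (log2 ratio 0.34). Rpsa, also known as the laminin receptor, had 75610 and 64976 (0.19). Rps6, the best known substrate of the S6 kinases that act below mTOR, had 24895 and 26778 (-0.14). Rps21 had the most negative ratio of the canonical genes, with 4615 and 6730 counts, or 148 and 212 FPKM, and a log2 ratio of -0.57 (-0.63 to -0.52). In Rps21 the shcircSmad5 library was lower by a little under 1.5-fold.

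The 4 genes whose products are known to bind Mdm2 when ribosome assembly fails, and so to stabilize p53, were close to equal. Rpl5 had 38360 counts in shcircSmad5 cells and 40951 in empty vector cells (log2 ratio -0.12), and Rpl11, its partner in the particle with the small rRNA of the large subunit, had 5984 and 6796 (-0.21). Rpl23 had 11464 and 10938 (0.04), and Rps7 had 11506 and 10543 (0.10). Mdm2 itself, the p53 ligase, had 32565 counts in shcircSmad5 cells and 70298 in empty vector cells, a log2 ratio of -1.14. Of 18 members whose human counterparts are mutated in Diamond-Blackfan anaemia, 12 had ratios above 0 and 6 below, between -0.32 (Rpl35) and 0.36 (Rpl27). Over all 84 measured members, 45 were above 0 and 39 below.

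The paralogs differ in sequence from their canonical partners and were counted apart. Rps27l, a p53 target, matches Rps27 at 76.1% of coding bases, and it had 2579 counts in shcircSmad5 cells and 2121 in empty vector cells (log2 ratio 0.25), beside 2532 and 1994 for Rps27 (0.31). Rpl22l1, which Rpl22 is known to hold down in mouse cells, had 489 and 476 counts (0.01), beside 3177 and 2964 for Rpl22 (0.07). Rpl7l1, on chromosome 17, had 2067 and 2920 counts (-0.53, interval -0.61 to -0.45), beside 26332 and 22144 for Rpl7 (0.22). The members of the Rpl7 pair thus had ratios on opposite sides of 0, with intervals apart. Of the members annotated as pseudogenes, Rps3a3 had 1601 and 1390 counts (0.17), beside 21197 and 20556 for Rps3a1 (0.01), and Rps3a2 (68 and 76), Rpl6l (43 and 56) and Rps12l1 (26 and 21) had few.

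The small ratios followed the chromosomes. Over 19 chromosomes with members, the median log2 ratio of the members and that of all measured genes there had the same sign in 18, with a Spearman's rho of 0.74, and over the 84 members the rho with their chromosome's median was 0.61. The members are themselves among the genes of each chromosome, and points share both libraries. With the median of its chromosome subtracted from each ratio, the median absolute log2 ratio of the members was 0.114, against 0.163 before.

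All 4 members on the X chromosome, Rpl10, Rpl36a, Rps4x and Rpl39, had ratios below 0, with a median of -0.36, where 373 X-linked genes had a median of -0.43. Rps4x, a protein of the small subunit body, had 16941 counts in shcircSmad5 cells and 20794 in empty vector cells (-0.33). On chromosome 17, 6 of 7 members were below 0, where 643 genes had a median of -0.38. They were Rpl7l1, Rpl36, Rps28, Rps10, Rpl10a (16341 and 17109 counts, -0.10) and Rps2, and Rps18 was the exception. The ratio of Rps2 was above 0 when scaled by total counts. On chromosome 2, all 4 members (Rps21, Rpl7a, Rpl35 and Rpl12) were below 0, with a median of -0.33 beside -0.16 for 1048 genes.

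On chromosome 11, all 7 members were above 0, with a median of 0.12 beside 0.10 for 1035 genes, and on chromosome 9, 6 of 7 were above 0, with a median of 0.19 beside 0.12 for 772 genes. Centred by chromosome, X-linked Rpl10 stood at 0.03, Rpl36a at 0.01 and Rps4x at 0.10, and all 3 had ratios below 0 before it. On chromosome 17, centring put Rpl36 at 0.09, Rps28 at 0.12, Rps10 at 0.15, Rpl10a at 0.28 and Rps2 at 0.34, all below 0 before it, and Rpl7l1 at -0.15. Rpl10a and Rps2 thus stood farther from 0 after centring than before. What sets the chromosome medians apart was not tested.

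**Figure D4:**
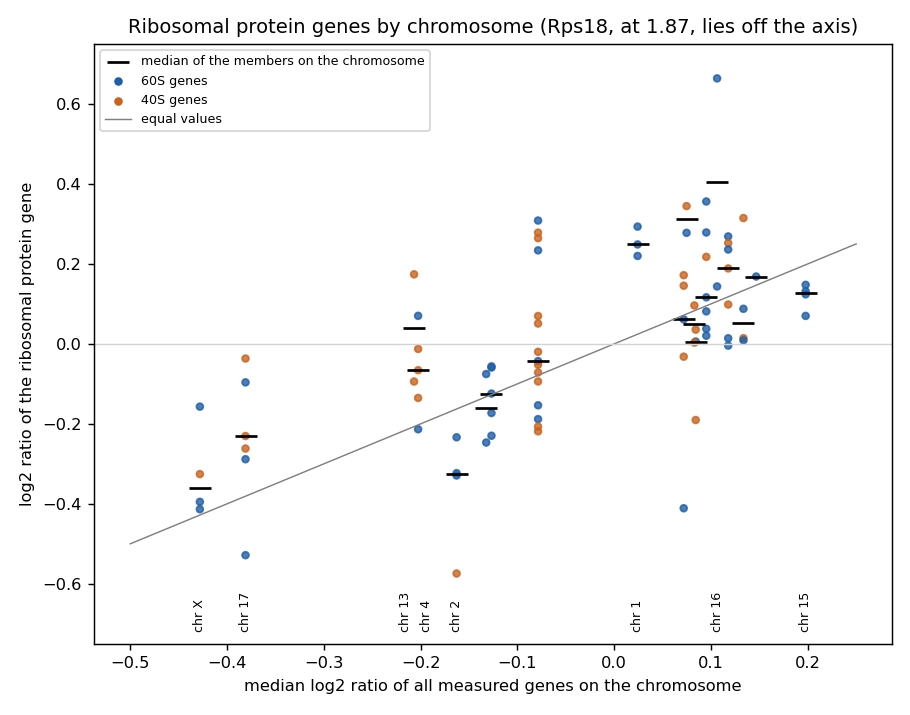
Log2 ratio of each measured ribosomal protein gene (shcircSmad5 over empty vector, points) and the median per chromosome (bars), against the median of all measured genes on that chromosome, with a line of equal values. Members on X (median -0.36) and chromosome 17 (-0.23) stand low at the left, those on chromosome 11 (0.12) and 9 (0.19) stand above 0 at the right, and Rps18, at 1.87, lies off the axis.

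In other lists of translation genes, 63.6% of mitochondrial ribosomal protein genes, 58.2% of assembly factors and 75.7% of initiation factors lay within 0.25 of 0. The shares were 64.3% for elongation and termination factors, 60% for RNA polymerase I, 56% for other TOP mRNAs and 52.4% for mTOR, Larp1 and Myc. They were 40.4% for all measured genes and 52.6% for protein-coding genes with at least 1000 counts. By the 2-fold rule 8.43% of all measured genes were higher and 6.24% lower, and 4.60% and 6.38% of protein-coding genes. Of 77 mitochondrial ribosomal protein genes, whose products serve the ribosomes of mitochondria, 0 were higher and 1 lower, Mrps36 (118 counts in shcircSmad5 cells and 237 in empty vector cells), with a median log2 ratio of 0.04. None of 122 ribosome assembly factors (median -0.01) and none of 15 genes of RNA polymerase I and its factors (median -0.05) was called. Among them the nucleolar proteins nucleolin, from Ncl, and nucleophosmin, from Npm1, had 32546 and 27980 counts (0.19) and 31089 and 28838 counts (0.08), and Ddx21 had 15282 and 14689 (0.03). For the polymerase, its largest subunit gene Polr1a had 11747 counts in shcircSmad5 cells and 9977 in empty vector cells (0.21), and its factors Rrn3 and Ubtf had log2 ratios of -0.05 and 0.10. These medians lay so near 0 that the sign of the assembly and polymerase ones turned with other scalings.

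Of 37 initiation factor genes, 0 were higher and 1 lower, beside 8.43% and 6.24% of all measured genes. The median log2 ratio of the 37 was 0.01. The lower one was the X-linked Eif1ax, which helps the small subunit find the start codon, with 2473 counts in shcircSmad5 cells and 5125 in empty vector cells (-1.08). None of 14 elongation and termination factors was called (median 0.07, and -0.02 with chromosomes centred). Eef1a1, which brings transfer RNAs to the ribosome, had 288349 and 283825 counts (-0.01), Eef2, which moves it along, had 131459 and 126602 (0.02), and Eef1g had 39140 and 30722 (0.32). Of 21 genes of mTOR, Larp1 and Myc, 0 were higher and 1 lower, Mycn, with 2 counts in shcircSmad5 cells and 37 in empty vector cells (log2 ratio -4.24, interval -7.34 to -2.28), and the median was -0.04. Of 9 genes of ribosomal stress and p53, 0 were higher and 1 lower, Mdm2, with a median of -0.09. With 14.7% of all measured genes called in either direction, such counts from lists of 9 to 21 genes do not set these lists apart.

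Of 25 other TOP mRNAs measured, 2 were higher and 1 lower, beside 14.7% of all measured genes called in either direction, with a median log2 ratio of 0.04. Gas5, a noncoding host of small nucleolar RNAs, had 1749 counts in shcircSmad5 cells and 154 in empty vector cells (3.48), and Ppia, a cyclophilin with many pseudogenes, had 36432 and 3004 (3.57). Tmsb4x, an X-linked actin-binding peptide gene, had 4329 and 14137 (-1.74). The 3 called genes thus differed in both directions, while 14 of the 25 lay within 0.25 of 0.

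Fau, which encodes a small subunit protein fused to a ubiquitin-like one, lies outside the naming rule. It had 20030 counts in shcircSmad5 cells and 15256 in empty vector cells (log2 ratio 0.36). Rpl36al, an autosomal paralog of Rpl36a, had 13 and 29 (-1.19) and was called lower. Of 144 pseudogenes named for ribosomal proteins, 53 were measured, of which 2 were higher and 1 lower, beside 8.43% and 6.24% of all measured genes. The median log2 ratio of the 53 was -0.05. Rps13-ps2 (22 counts in shcircSmad5 cells and 1 in empty vector cells, 4.43, interval 1.80 to 9.80) and Rpl36a-ps4 (24 and 8) were higher, and Rps2-ps13 was lower. All 144 together took 0.0460% of counts in shcircSmad5 cells and 0.0646% in empty vector cells, a small part of the reads of the family. Rps2-ps13 alone had 5677 of their 17656 counts in shcircSmad5 cells and 12931 of 25347 in empty vector cells. Copies with other names, such as the Rpl12 copy Gm10275 (1304 and 1606 counts), are not among the 144.

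**Figure D5:**
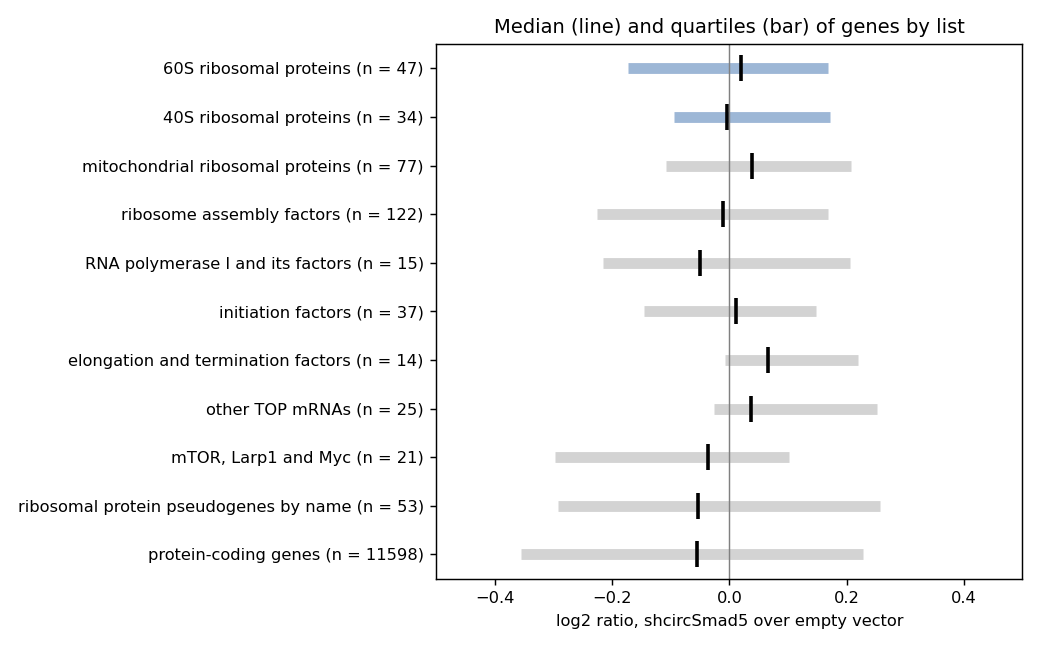
Median log2 ratio (line) and the range between the lower and upper quartile (bar) of measured genes in the ribosomal protein lists and in other lists of translation genes, shcircSmad5 over empty vector, with all measured protein-coding genes at the foot. The medians of the 60S genes (0.02) and 40S genes (-0.00) lie at 0, and their bars are shorter than that of the protein-coding genes, whose median is -0.05. The 60S and 40S lists leave out the paralogs and keep the members annotated as pseudogenes.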

How the data were processed

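Strand-marking libraries were made from total RNA, 3 µg each, after ribosomal RNA removal, per the labels' protocols. The submitters' processing notes name HTSeq 0.13.5, HISAT2 and, without roles, GRCm38 and GRCh38. Alignment settings, the strand setting and the handling of multiply matching reads were not given in the sources used here. Whole-number read counts per gene, not normalized, and FPKM values were deposited by the authors, per the file headers. FPKM divided by exon length summed over all transcripts, since the implied length equalled that of GENCODE M21 in 98.3% of genes of the shcircSmad5 library and 98.2% of the empty vector library. Of the gene IDs, 22298 were found in M21 and 85 were not, and all 86 members were found. The number of value columns without a library was 0.

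Counts were scaled by TMM (edgeR 4.0.16, R 4.3.3). Ratios are shcircSmad5 over empty vector with exact 95% intervals (Clopper-Pearson, from the split of counts between libraries). They cover counting error only, and without molecular identifiers reads are not independent molecules. No test was possible with 1 library in each group. The size rule needed 20 counts in either library, 2-fold, and an interval that excludes 1, and it was tested on simulated data. The simulated counts carried counting error alone, so they do not show how the rule fares with spread between cultures. Uniqueness is the share of 100-base windows of the principal transcript, on either strand, found exactly in no other M21 gene. Promoters came from RefSeq. Alternatives were other scalings with DESeq2 1.42.0 among them, count minimums, FPKM with pseudocounts of 0.1 and 1, a 1.5-fold limit, other member sets and centring by chromosome.

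The members, lists and role groups were chosen with earlier results of these data known. Named members are the 10 highest and 10 lowest ratios with at least 100 counts, the 10 highest and 5 lowest FPKM in empty vector cells, and all called, paralog, stalk, Mdm2-binding and chromosome 17 genes, with Rpsa and Rps6. From other lists, up to 4 called genes or up to 3 with the most counts are named. Of the genes these rules name, 2 are not reported here. Rpl3, Rpl7, Rpl8, Rpl12, Rpl13a, Rpl22, Rpl39, Rps15a, Rps20, the genes near Rps18 and the copies were named after their values were seen.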

Additional observations from a re-analysis of the deposited data

How the results depend on the processing

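Rps18 was called higher and no member lower under every scaling, count minimum and FPKM pseudocount tried, without the paralogs, and with chromosomes centred. At 1.5-fold 2 members were higher, Rps18 and Rpl24, and with the reads of annotated pseudogenes added 2 were higher, the same genes. Among the 13 measured members with at least 90% of transcript windows unique, 0 were higher at 2-fold, since Rps18 is not among them. The planned form of this filter, over the whole genome, was not run, as no genome was used here, and the transcript form, the canonical set and the added pseudogenes were chosen after seeing the data. Other scalings moved the median of all genes by at most 0.07 log2, which is more than the members' median itself. That median was 0.0741 by total counts, 0.0762 by upper quartile, 0.0768 by totals without the members, 0.0606 by TMM over protein-coding genes, and 0.0735 and 0.0721 with FPKM pseudocounts of 0.1 and 1, against 0.01. In the same order the median of the large subunit genes was 0.0830, 0.0851, 0.0857, 0.0695, 0.0830 and 0.0829, and 0.132 among unique members. That of the small subunit genes was 0.0579, 0.0600, 0.0606, 0.0444, 0.0578 and 0.0566, with 0.0868 after centring by chromosome and -0.0569 among unique members. The difference in share of counts was 0.0464 points over unique members, and 0.581 points in summed FPKM. Of the 42 named members, Rps12, Rps2 and Rplp0 crossed 0 with total counts, and 15 took the other sign after centring by chromosome, none of them called. With total counts the medians of the assembly, polymerase I, mTOR and pseudogene lists turned positive, and with centring those of the elongation, initiation and other TOP lists turned negative. No paired analysis was possible because each group has 1 library. Depth limits Rpl24, Rps10, Rpl6l, Rps3a2 and Rps12l1, whose intervals are wide.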
